A study of Homo sapiens with 8 samples.

Results

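A set of 10 genes of the Hippo pathway were followed through a hormone treatment of Ishikawa cells, a long-established human cell line from an endometrial adenocarcinoma. They were taken by symbol from a count table of 26364 genes and are CTGF, CYR61, ANKRD1, THBS1, AMOTL2, AJUBA, LATS2, YAP1, WWTR1 and TEAD1. CTGF, CYR61, ANKRD1 and THBS1 were picked because of their pattern over the 4 groups of this experiment, so their values are given as a description with no p-value. The other 6 were chosen as pathway factors, though with earlier results of these data known. Their changes were tested within a fit over all genes.

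Cells were given DMSO as vehicle, 100 nM of dexamethasone, which activates the glucocorticoid receptor, 10 nM of estradiol, which activates the estrogen receptor, or the pair of hormones, called the combination here. Each of the 4 groups had 2 libraries, and all cells were kept in medium without phenol red and with charcoal-stripped serum, which is poor in steroids. The sample labels give 8 hr of treatment, while the protocol shared by all samples gives 1 hr. Nothing in the labels states that the replicates were separate cultures, so the p-values rest on a spread between libraries that may be technical only. The libraries held 17846211 to 22487333 counts, and 14201 genes, including all 10 members, passed the filter on low counts.

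Known target genes of both receptors differed between the groups. The glucocorticoid target FKBP5 had 88.4 ± 5.10 CPM (counts divided by the scaled library size, the usual per-library measure, mean ± SD, n = 2) in DMSO and 281 ± 31.0 CPM with dexamethasone. The estrogen target PGR had 3.31 ± 1.11 CPM in DMSO and 36.4 ± 6.54 CPM with estradiol. Dexamethasone replicate 1 stood apart from replicate 2 in estrogen targets, with PGR at 8.91 against 2.47 CPM and GREB1 at 17.7 against 6.85 CPM. Epithelial markers, led by KRT8, summed to between 3006 and 4447 CPM over the 8 libraries. Their sum was higher with dexamethasone (3954 to 4447 CPM) than in DMSO (3006 to 3596 CPM), and its part in the results was not tested. The markers did not move together. The log2 difference of dexamethasone from DMSO was 0.43 for KRT8, 0.43 for KRT18, 0.64 for KRT19 and 0.43 for MUC1. For EPCAM it was 0.09 and for CDH1 -0.0037, and the libraries of both overlapped DMSO. Endothelial, smooth muscle and leukocyte markers summed to at most 11.4, 11.9 and 2.12 CPM. Fibroblast markers, led by COL1A1, summed to 138 to 201 CPM, highest in a DMSO library and lowest in a combination library. Most of this sum was COL1A1 (123 to 185 CPM), followed by COL3A1 (10.9 to 15.0 CPM). The other listed fibroblast markers were low, with COL1A2 at 1.15 to 1.82 CPM and THY1 at 0.827 to 1.35 CPM. DCN, LUM and PDGFRB had at most 1, 2 and 2 counts in any library. In bulk RNA a change in the number of cells of a kind and a change of RNA per cell cannot be told apart.

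The Hippo pathway is a kinase cascade that restrains growth. Its kinases, LATS1 and LATS2, phosphorylate the coactivators YAP (YAP1) and TAZ (WWTR1) and keep them out of the nucleus. When the kinases are less active, YAP and TAZ enter the nucleus and bind TEAD factors, which carry them to target genes such as CTGF (CCN2), CYR61 (CCN1) and ANKRD1. AMOTL2, AJUBA and LATS2 act in the cascade, and some of them are targets as well, which closes a feedback loop.

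The promoters of CTGF, ANKRD1 and THBS1 are printed because these genes had the largest differences among the members with a promoter entry, and because all 3 hold the core TEAD motif. Each sequence covers the 250 bases before the RefSeq start site in GRCh38.p14, read 5′ to 3′ on the strand of the gene, and capitals mark each match to GGAATG. CTGF lies at chr6:131951373-131951622 on the minus strand, ANKRD1 at chr10:90921088-90921337 on the minus strand and THBS1 at chr15:39580829-39581078 on the plus strand.
CTGF: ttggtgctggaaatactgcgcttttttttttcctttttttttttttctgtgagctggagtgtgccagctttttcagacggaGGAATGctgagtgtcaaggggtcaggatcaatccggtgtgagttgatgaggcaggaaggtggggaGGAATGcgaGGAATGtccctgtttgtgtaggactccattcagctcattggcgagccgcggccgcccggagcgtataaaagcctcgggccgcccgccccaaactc
ANKRD1: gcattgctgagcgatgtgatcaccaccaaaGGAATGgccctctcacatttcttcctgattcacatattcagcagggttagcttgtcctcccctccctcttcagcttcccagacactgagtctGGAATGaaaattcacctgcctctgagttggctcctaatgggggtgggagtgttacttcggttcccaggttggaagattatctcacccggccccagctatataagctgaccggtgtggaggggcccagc
THBS1: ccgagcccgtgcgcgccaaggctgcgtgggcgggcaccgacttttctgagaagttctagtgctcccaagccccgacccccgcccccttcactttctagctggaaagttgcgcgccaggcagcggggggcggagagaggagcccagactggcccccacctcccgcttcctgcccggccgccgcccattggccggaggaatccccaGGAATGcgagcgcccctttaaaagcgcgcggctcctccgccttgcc

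Of the 10 members, 8 had an entry in the RefSeq promoter table. CYR61 and TEAD1 had none. GGAATG was searched on both strands and found in 4 of the 8 promoters, CTGF, ANKRD1, THBS1 and YAP1, against 11.9% of 35116 promoters of the same length. CTGF held 3 matches, which start 169, 104 and 95 bases before the start site. ANKRD1 held 2, at 220 and 128 bases, YAP1 held 1 at 162 bases, and THBS1 held 1 at 46 bases. The AP-1 motif TGACTCA was in 0 of the 8 and in 4.2% of all promoters, and the CArG box bound by SRF was in 0 of the 8 and in 1.16%. The core of the glucocorticoid receptor element, ACANNNTGT, was in 1 of the 8 (WWTR1, 49 bases before the start of its entry) and in 4.61% of all promoters. The WWTR1 window, chr3:149703274-149703523 on the minus strand, lies inside the gene, whose 5′ end in GENCODE 29 is at 149736714. Its start site is therefore not the outermost start of WWTR1. The windows of ANKRD1, AMOTL2 and AJUBA also reach into their genes, whose 5′ ends in GENCODE 29 are at 90921276, 134375479 and 22982642. The ANKRD1 match at 128 bases lies within the gene so annotated. The full estrogen response element, GGTCANNNTGACC, was in 0 of the 8 and in 0.0399% of all promoters. These are matches of letters within a short window and do not show binding.

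**Figure D1:**
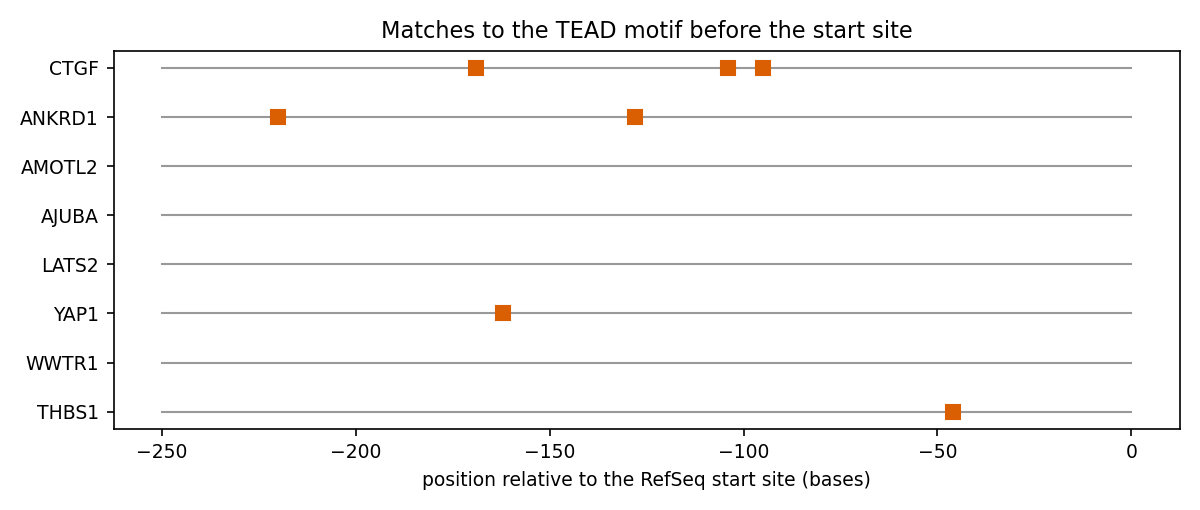
Positions of GGAATG matches (squares) in the 250 bases before the RefSeq start site of the 8 members with a promoter entry, in bases from the start. CTGF carries 3 matches, ANKRD1 2, and YAP1 and THBS1 1 each.

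The members differed widely in abundance. Per kilobase of exon (GENCODE 29), the DMSO level was highest for YAP1 (40.7 CPM per kb, mean of 2), followed by AMOTL2 at 36.8, CYR61 at 32.1, THBS1 at 13.7 and AJUBA at 11.7 CPM per kb. LATS2 (5.84), TEAD1 (5.40), WWTR1 (5.21) and CTGF (3.56) were lower, and ANKRD1 was lowest at 1.33 CPM per kb. Of the neighbours in this order, THBS1 (17.7 and 9.81 CPM per kb in the DMSO libraries) overlapped AJUBA, and WWTR1 (5.61 and 4.81) overlapped TEAD1. The libraries of the other neighbours did not overlap, though CYR61 at 28.5 and 35.7 CPM per kb came close to AMOTL2 at 37.5 and 36.1.

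CTGF encodes a secreted matricellular protein and is the target most often read as a measure of YAP activity. It had 7.09 and 9.58 CPM in DMSO replicates 1 and 2, 10.4 and 13.8 under dexamethasone, 6.02 and 5.25 under estradiol, and 4.70 and 5.25 under the combination. Both dexamethasone libraries lay above every other library, and the estradiol and combination libraries lay below DMSO, with the nearest of these to each other both at 5.25 CPM. The group means were 8.33 ± 1.76, 12.1 ± 2.37, 5.64 ± 0.545 and 4.98 ± 0.388 CPM (SD, n = 2). The fitted log2 difference was 0.54 ± 0.19 (SE) for dexamethasone against DMSO, a fold of 1.45, and -0.57 ± 0.20 for estradiol. For the combination it was -0.75 ± 0.20 against DMSO, -0.18 ± 0.21 against estradiol and -1.28 ± 0.20 against dexamethasone. These comparisons share libraries and are not independent. CTGF had only 106 to 246 counts per library, and its log2 difference for dexamethasone was 0.33 without dexamethasone replicate 2 and 0.34 without DMSO replicate 1. Without DMSO replicate 2 that of estradiol was -0.33.

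CYR61, a secreted relative of CTGF and another standard YAP target, had 69.9 and 87.7 CPM in DMSO, 97.0 and 131 under dexamethasone, 61.4 and 73.7 under estradiol, and 53.9 and 57.4 under the combination. Its highest libraries were again those of dexamethasone alone and its lowest those of the combination, while estradiol overlapped DMSO. The means were 78.8 ± 12.6, 114 ± 23.9, 67.6 ± 8.74 and 55.6 ± 2.51 CPM (SD, n = 2). The log2 difference from DMSO was 0.53 ± 0.16 for dexamethasone, -0.22 ± 0.16 for estradiol and -0.50 ± 0.16 for the combination. Against dexamethasone the combination was lower by a log2 difference of -1.03 ± 0.16. CYR61 was measured with 1090 to 2330 counts per library, so counting error was small beside the spread of replicates. Its log2 difference for dexamethasone was 0.30 without dexamethasone replicate 2. That of estradiol was nearer 0 when DMSO replicate 2 (-0.0445) or estradiol replicate 1 (-0.0961) was left out, and -0.37 when either of the other libraries of these groups was left out, and that of the combination was -0.33 without DMSO replicate 2.

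ANKRD1, a cardiac ankyrin repeat protein induced by YAP, followed another order. It had 2.57 and 2.67 CPM in DMSO, 3.18 and 3.82 under dexamethasone, 3.77 and 3.67 under estradiol, and 1.60 and 1.39 under the combination. Each hormone alone lay above DMSO in both libraries, and the combination lay below it. The means were 2.62 ± 0.0725, 3.50 ± 0.451, 3.72 ± 0.0761 and 1.49 ± 0.146 CPM (SD, n = 2). In log2 units dexamethasone differed from DMSO by 0.41 ± 0.21 and estradiol by 0.50 ± 0.21, whereas the combination differed by -0.81 ± 0.23. The combination was also below estradiol, by a log2 difference of -1.31 ± 0.22, and below dexamethasone, by -1.22 ± 0.22. Only 31 to 83 counts per library lay behind these values, so they are imprecise.

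THBS1 encodes thrombospondin 1, a secreted glycoprotein of the matrix that is listed among YAP targets. It had 162 and 89.9 CPM in DMSO, 356 and 112 under dexamethasone, 845 and 819 under estradiol, and 766 and 817 under the combination. All 4 libraries with estradiol lay above all 4 without it, and the dexamethasone libraries overlapped DMSO. Estradiol gave a log2 difference from DMSO of 2.72 ± 0.43, a fold of 6.61, and the combination 2.65 ± 0.43, a fold of 6.29. The combination and estradiol alone differed by -0.07 ± 0.40. For dexamethasone alone the log2 difference was 0.90 ± 0.41, and it became -0.16 without dexamethasone replicate 1, the library with higher PGR and GREB1, and 1.5 without replicate 2. It was 1.38 without DMSO replicate 1 and 0.54 without DMSO replicate 2. The log2 difference of the combination from dexamethasone, 1.76 ± 0.41, was 2.82 without that replicate 1 and 1.15 without replicate 2. The means were 126 ± 51.0, 234 ± 172, 832 ± 18.4 and 792 ± 36.4 CPM (SD, n = 2), and THBS1 shares 448 exonic bases with FSIP1 on the opposite strand, which had 11 to 25 counts.

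**Figure D2:**
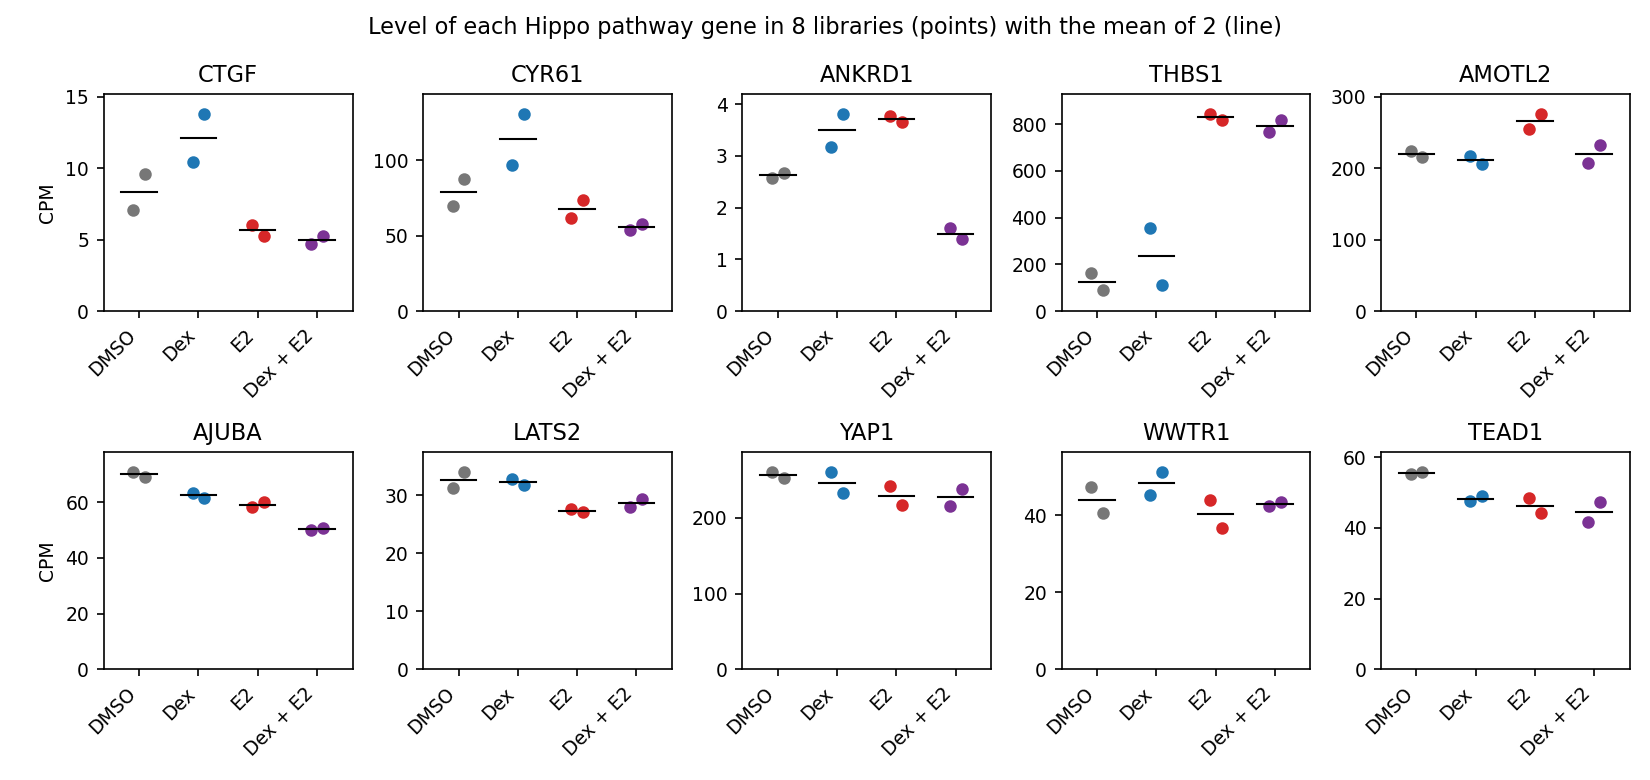
CPM of the 10 members in the 8 libraries (points, 2 per group) with the mean of each group (line); each panel has its own axis from 0. CTGF and CYR61 are highest with dexamethasone, ANKRD1 is lowest with the combination (1.60 and 1.39 CPM), THBS1 is high in the 4 libraries with estradiol, and YAP1 stays between 216 and 261 CPM.

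The fitted dexamethasone difference of CTGF, CYR61 and ANKRD1 had another sign with estradiol than without it. With estradiol, that of CTGF was smaller than its SE. Dexamethasone against DMSO gave positive log2 differences for all 3, and the combination against estradiol gave -0.18 ± 0.21 for CTGF, -0.28 ± 0.16 for CYR61 and -1.31 ± 0.22 for ANKRD1. The CTGF value was -0.0767 without estradiol replicate 1, -0.0974 without combination replicate 1 and -0.27 without estradiol replicate 2, and the CYR61 value was -0.13 without estradiol replicate 2. The difference between both effects, the interaction, was -0.71 ± 0.28 for CTGF, -0.81 ± 0.22 for CYR61 and -1.72 ± 0.30 for ANKRD1. It was -0.97 ± 0.57 for THBS1 and 0.09 without dexamethasone replicate 1, -1.58 without dexamethasone replicate 2, -1.45 without DMSO replicate 1 and -0.61 without DMSO replicate 2. These genes were picked for this pattern, so the values carry no test. Over all genes, edgeR's quasi-likelihood test called 3 interactions at an adjusted p under 0.05, 0.0211% of those tested. None of the 6 members chosen as pathway factors was among them, with 0 at an unadjusted p under 0.05 and 0 by DESeq2.

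Among these 6 members, AJUBA was the only one called in any comparison. AJUBA is a LIM domain scaffold that binds LATS kinases and dampens them. It had 70.8 and 69.1 CPM in DMSO, 63.3 and 61.5 under dexamethasone, 58.2 and 60.0 under estradiol, and 50.1 and 50.9 under the combination. Each group lay below DMSO without overlap, and the combination lay below both single hormones. The means were 70.0 ± 1.17, 62.4 ± 1.25, 59.1 ± 1.26 and 50.5 ± 0.509 CPM (SD, n = 2). With the combination AJUBA fell by 0.47 ± 0.09 on the log2 scale against DMSO (edgeR adjusted p = 0.0168, DESeq2 adjusted p = 0.00294). Of the 6 members, 1 was lower in this comparison, while 0.711% of all tested genes were called lower and 2.19% in either direction. The call was lost without either DMSO library or either combination library (edgeR adjusted p up to 0.257) and held without any of the 4 others. The log2 differences were -0.17 ± 0.09 for dexamethasone (edgeR adjusted p = 0.592) and -0.24 ± 0.09 for estradiol (edgeR adjusted p = 0.280).

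AMOTL2, an angiomotin family member that tethers YAP at cell junctions and is itself a YAP target, had 224 and 216 CPM in DMSO, 217 and 206 under dexamethasone, 255 and 276 under estradiol, and 208 and 232 under the combination. Both estradiol libraries were above all 6 others, and the dexamethasone and combination groups overlapped DMSO. The log2 difference of estradiol from DMSO was 0.27 ± 0.09 (edgeR adjusted p = 0.255), which did not pass the threshold. The combination differed from estradiol by -0.27 ± 0.09 (edgeR adjusted p = 0.602).

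LATS2, the kinase that phosphorylates YAP and TAZ and that YAP induces in turn, had 31.2 and 34.0 CPM in DMSO, 32.7 and 31.7 under dexamethasone, 27.5 and 27.0 under estradiol, and 27.96 and 29.3 under the combination. All 4 libraries with estradiol were below all 4 without it. The log2 difference from DMSO was -0.26 ± 0.10 for estradiol (edgeR adjusted p = 0.319) and -0.19 ± 0.10 for the combination (edgeR adjusted p = 0.577). Neither passed the threshold.

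The coactivators themselves showed small differences. YAP1 had 260 and 253 CPM in DMSO, 261 and 232 under dexamethasone, 242 and 217 under estradiol, and 216 and 239 under the combination. The log2 differences of YAP1 from DMSO were -0.06 ± 0.10, -0.16 ± 0.10 and -0.17 ± 0.10 (edgeR adjusted p = 0.892, 0.663 and 0.648). WWTR1, which encodes TAZ, had 47.2 and 40.5 CPM in DMSO, 45.3 and 51.2 under dexamethasone, 44.0 and 36.6 under estradiol, and 42.3 and 43.3 under the combination. Every hormone group of WWTR1 overlapped DMSO, with log2 differences of 0.14 ± 0.12, -0.12 ± 0.12 and -0.03 ± 0.12 (edgeR adjusted p = 0.761, 0.846 and 0.969). WWTR1 shares 795 exonic bases with WWTR1-AS1 on the opposite strand, which had only 2 to 5 counts.

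TEAD1, a DNA-binding partner of YAP and TAZ, had 55.2 and 55.8 CPM in DMSO, 47.5 and 49.1 under dexamethasone, 48.4 and 44.2 under estradiol, and 41.6 and 47.4 under the combination. Both DMSO libraries were above all 6 hormone libraries. The log2 differences were -0.20 ± 0.10, -0.26 ± 0.10 and -0.32 ± 0.10 (edgeR adjusted p = 0.574, 0.330 and 0.204), and none passed the threshold.

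How often the libraries of a group lay apart from DMSO was counted for the 6 members and for all tested genes. With estradiol, 4 of the 6 (AJUBA, LATS2, YAP1 and TEAD1) were below DMSO without overlap and 1 (AMOTL2) above, while 17.9% of all genes were lower and 18.3% higher in this way. With the combination 4 of the 6 were below DMSO and 0 above, while 19.3% and 19.8% of all genes were. With dexamethasone alone 2 of the 6 (AJUBA and TEAD1) were below and 0 above, while 17.7% and 18.5% of all genes were. The combination was below estradiol in 2 of the 6 (AMOTL2 and AJUBA) and above it in 1 (LATS2), while 19.6% and 18.1% of all genes were. It was below dexamethasone in 4 of the 6 and above it in 0, while 25% and 24.8% of all genes were. By edgeR, 0 of the 6 were called with dexamethasone (0.965% of all genes; 0 at an unadjusted p under 0.05, 0 by DESeq2). With estradiol 0 of the 6 were called (1.80% of all genes; 4 at an unadjusted p under 0.05, 0 by DESeq2). The combination gave 0 calls against estradiol (0.275% of all genes; 2 unadjusted, 0 by DESeq2) and 0 against dexamethasone (2.67% of all genes; 1 unadjusted, 0 by DESeq2).

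**Figure D3:**
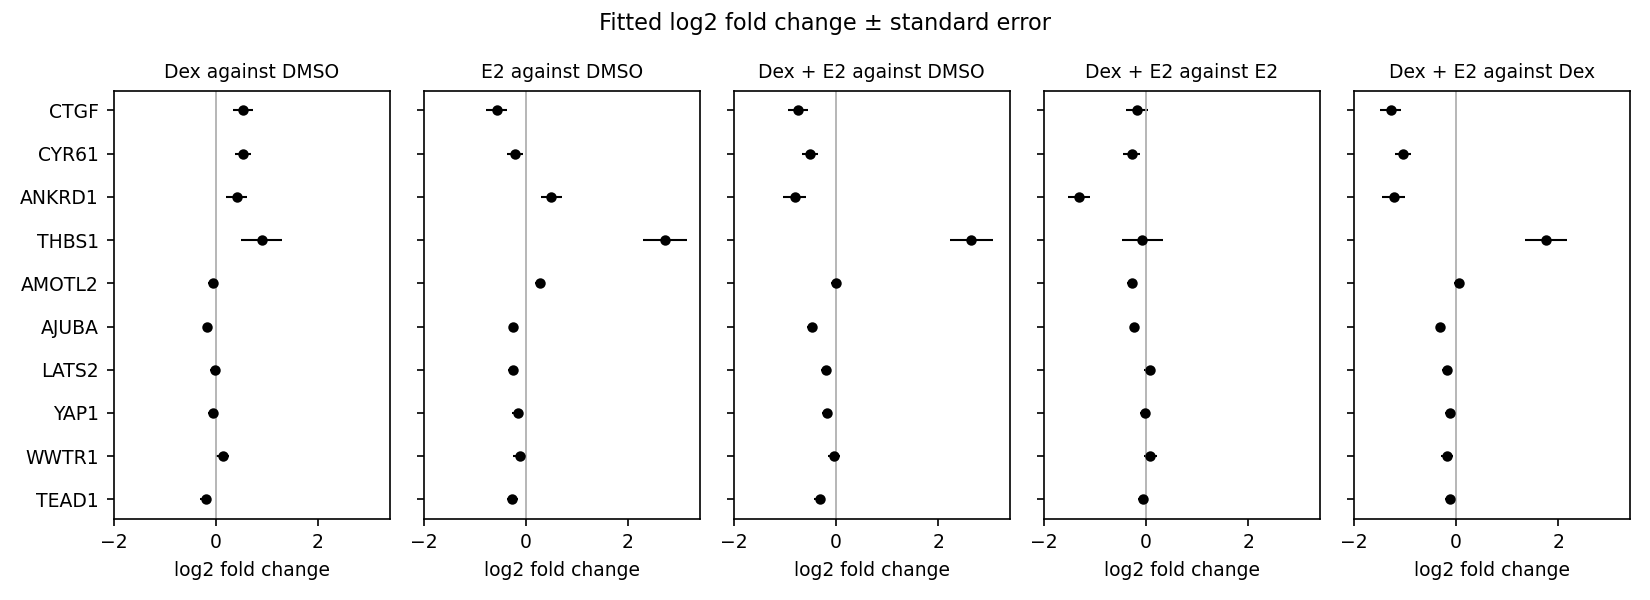
Fitted log2 fold change (points) with its standard error (bars) for the 10 members in 5 comparisons; comparisons that use the same group share its libraries. THBS1 reaches 2.72 with estradiol, CTGF, CYR61 and ANKRD1 lie between -1.28 and -1.03 in the combination against dexamethasone, and the other members stay between -0.47 and 0.27.

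Other genes of the pathway were described from lists of kinases and upstream regulators, TEAD factors and their cofactors, and a signature of YAP and TAZ targets. These lists, too, were chosen with earlier results of these data known. With the 6 members these gave 49 tested genes. By edgeR 0 of the 49 were called higher in any of the 5 comparisons, while 0.908%, 1.19%, 1.48%, 0.239% and 0.824% of all genes were, in the order of dexamethasone, estradiol and the combination against DMSO, and the combination against estradiol and against dexamethasone. DESeq2 called 1 of the 49 higher, F3, which encodes tissue factor. The share of all genes that DESeq2 called higher was not counted. In either direction, its number of calls over all genes stayed within 1.5 times that of edgeR in each comparison with DMSO. There edgeR called 0.965%, 1.80% and 2.19% of all genes with dexamethasone, estradiol and the combination. F3 had 6.77 and 5.202 CPM in DMSO, 11.2 and 10.3 under dexamethasone, 6.25 and 6.89 under estradiol, and 12.2 and 8.98 under the combination, so that all 4 libraries with dexamethasone lay above all 4 without it. Its log2 difference from DMSO was 0.85 ± 0.19 with dexamethasone (edgeR adjusted p = 0.0859, DESeq2 adjusted p = 0.0462) and 0.83 ± 0.19 with the combination (edgeR adjusted p = 0.0515, DESeq2 adjusted p = 0.0286). F3 was named after its values were seen.

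Of genes called lower by edgeR, dexamethasone gave 1 of 49 (FRMD6), while 0.0563% of all genes were lower. Estradiol gave 2 (TGFB2 and RBMS3), while 0.613% of all genes were. Against DMSO the combination gave 4 (AJUBA, IGFBP3, NUAK2 and RBMS3), while 0.711% of all genes were lower. Against dexamethasone it gave 5 (TEAD3, IGFBP3, NUAK2, TGFB2 and RBMS3), while 1.84% of all genes were lower. Against estradiol, where 0.0352% of all genes were lower, it gave 0 (4 at an unadjusted p under 0.05, 0 by DESeq2), and the interaction gave 0 (4 unadjusted, 0 by DESeq2). The list medians of the log2 difference were -0.06, -0.11, -0.11, -0.01 and -0.02 in the same order, and the medians of all genes lay within 0.01 of 0.

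Of 21 kinases and upstream regulators, FRMD6 was the only one called by edgeR. DESeq2 also called AMOTL1, a relative of AMOTL2, in the combination against dexamethasone, with a log2 difference of -0.36 ± 0.09 (edgeR adjusted p = 0.0570, DESeq2 adjusted p = 0.0171). FRMD6 is a FERM domain protein placed upstream of the kinases. It had 25.2 and 23.4 CPM in DMSO, 15.5 and 16.1 under dexamethasone, 23.1 and 21.5 under estradiol, and 20.6 and 21.5 under the combination. Dexamethasone alone was the lowest group, and FRMD6 fell by 0.62 ± 0.11 on the log2 scale against DMSO (edgeR adjusted p = 0.0241). The call was lost without DMSO replicate 1, either dexamethasone library or either combination library (edgeR adjusted p up to 0.126), and also when only the libraries of both groups were fitted (edgeR adjusted p = 0.162). The abundant kinases TAOK1 and MAP4K4 had log2 differences of -0.22 ± 0.13 and -0.06 ± 0.10 with dexamethasone, which did not pass.

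Of the TEAD factors and cofactors, 5 of 7 were tested, and VGLL1 and VGLL2 were below the filter. TEAD3 had 50.2 and 50.0 CPM in DMSO, 50.9 and 54.0 under dexamethasone, 37.3 and 39.7 under estradiol, and 38.5 and 39.8 under the combination. All 4 libraries with estradiol were below all 4 without it. TEAD3 fell by 0.42 ± 0.09 in the combination against dexamethasone (edgeR adjusted p = 0.0407), and the call was lost without any of the 6 hormone libraries (edgeR adjusted p up to 0.316). TEAD2 had a log2 difference of -0.38 ± 0.14 with estradiol (edgeR adjusted p = 0.274) and of -0.49 ± 0.14 in the combination against dexamethasone (edgeR adjusted p = 0.0993, DESeq2 adjusted p = 0.0452), and TEAD4 had -0.02 ± 0.09 with estradiol.

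The signature of 17 YAP and TAZ targets held most of the calls. IGFBP3, a secreted binding protein of insulin-like growth factors, had 396 and 450 CPM in DMSO, 446 and 654 under dexamethasone, 276 and 275 under estradiol, and 249 and 254 under the combination. It was lowest in the 4 libraries with estradiol. With estradiol alone its log2 difference from DMSO was -0.62 ± 0.15, called by DESeq2 but not by edgeR (edgeR adjusted p = 0.0780, DESeq2 adjusted p = 0.00215). IGFBP3 fell by 0.75 ± 0.15 in the combination against DMSO (edgeR adjusted p = 0.0260) and by 1.13 ± 0.15 against dexamethasone (edgeR adjusted p = 0.00403). The second call held without each library in turn (edgeR adjusted p up to 0.0390), while the first was lost without DMSO replicate 2, either estradiol or either combination library.

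TGFB2, a ligand of the TGF-beta receptors, had 18.1 and 18.9 CPM in DMSO, 22.2 and 28.3 under dexamethasone, 11.9 and 10.9 under estradiol, and 12.6 and 12.1 under the combination. Dexamethasone gave the highest libraries and estradiol the lowest. TGFB2 fell by 0.69 ± 0.14 with estradiol against DMSO (edgeR adjusted p = 0.0352) and by 1.03 ± 0.14 in the combination against dexamethasone (edgeR adjusted p = 0.00373). The latter held without each library in turn (edgeR adjusted p up to 0.0414). The former was lost without any of the 6 libraries other than those of dexamethasone.

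NUAK2, a kinase related to AMPK, had 16.6 and 16.8 CPM in DMSO, 18.8 and 13.5 under dexamethasone, 11.3 and 10.7 under estradiol, and 9.58 and 9.20 under the combination. The 4 libraries with estradiol lay below the 4 without it. NUAK2 fell by 0.83 ± 0.16 in the combination against DMSO (edgeR adjusted p = 0.0195) and by 0.78 ± 0.16 against dexamethasone (edgeR adjusted p = 0.0293), with both calls lost without either combination library. The first was also lost without either DMSO library, and the second also without dexamethasone replicate 1 or either estradiol library. RBMS3, an RNA-binding protein, had 87.0 and 90.4 CPM in DMSO, 81.6 and 80.7 under dexamethasone, 63.0 and 50.9 under estradiol, and 54.1 and 59.9 under the combination. RBMS3 fell by 0.64 ± 0.11 with estradiol (edgeR adjusted p = 0.0165) and by 0.64 ± 0.11 with the combination (edgeR adjusted p = 0.0118), both against DMSO. Its call in the combination against dexamethasone, -0.51 ± 0.11 (edgeR adjusted p = 0.0406), was named after its value was seen. The estradiol call was lost without DMSO replicate 2 or estradiol replicate 2, and the other calls without either combination library, the last also without either dexamethasone library.

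**Figure D4:**
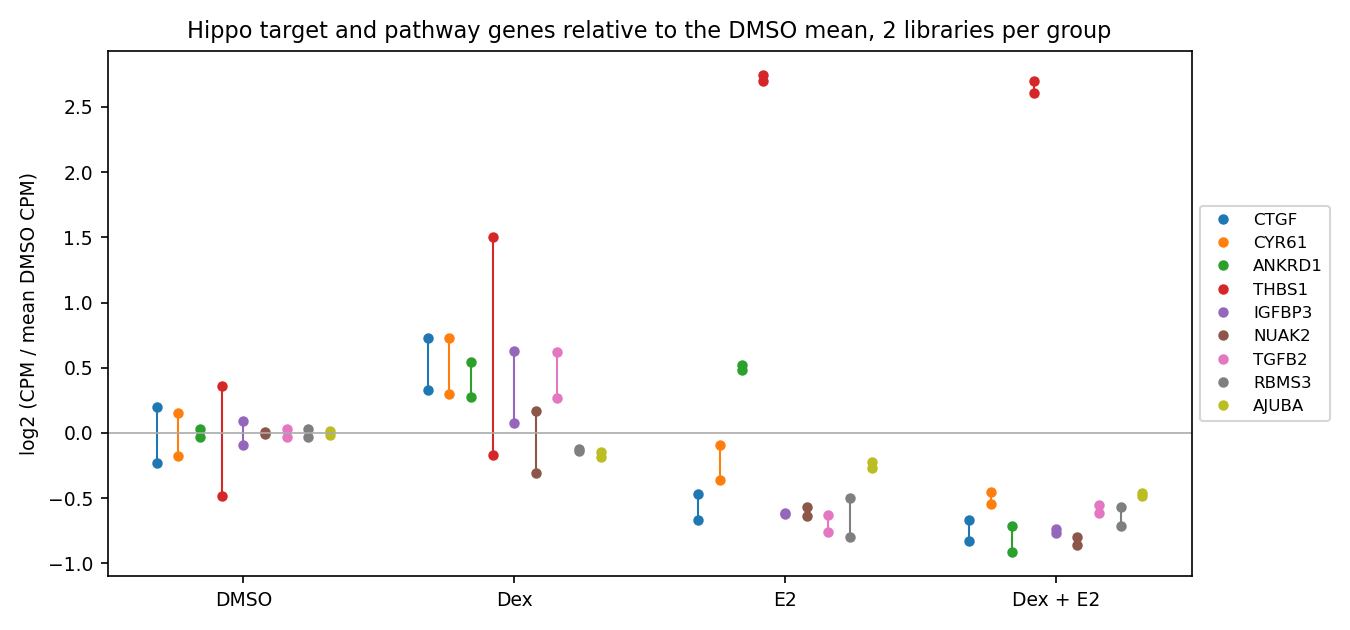
Each library's CPM relative to the mean of the DMSO libraries, on a log2 scale, for 9 target and pathway genes (colours; 2 points joined per group). THBS1 lies far above the rest with estradiol, while CTGF, CYR61 and TGFB2 lie above 0 with dexamethasone alone and below 0 with the combination.

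The close relatives of the members, such as other CCN and thrombospondin genes, did not yield a call in any comparison. Of 10 listed relatives 5 were tested. In the comparisons of groups edgeR called 0.275% to 2.67% of all tested genes, so an absence of calls among so few relatives carries little weight. With dexamethasone NOV (CCN3) had a log2 difference of 0.29 ± 0.14 and THBS4 of 0.20 ± 0.17, with 0 of 5 at an unadjusted p under 0.05 and 0 by DESeq2. With estradiol, where THBS1 was 6.61-fold higher, THBS4 had a log2 difference of 0.09 ± 0.17.

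Some targets of YAP and TAZ also respond to SRF or AP-1, so 2 further lists were read. Of 16 tested genes of SRF and the actin cytoskeleton, 1 was called by edgeR in any of the 5 comparisons. CNN2, an actin-binding calponin, fell by 0.52 ± 0.11 in the combination against dexamethasone (edgeR adjusted p = 0.0388), while 1.84% of all genes were called lower there. The call was lost without dexamethasone replicate 2, either estradiol or either combination library. DESeq2 called 3 in that comparison, CNN2, VCL and ACTG1 (adjusted p = 0.00182, 0.0353 and 0.0172), and VCL in the combination against DMSO (adjusted p = 0.00873), all lower. The share of all genes that DESeq2 called lower was not counted. In either direction, its number of calls over all genes stayed within 1.5 times that of edgeR in both comparisons. There edgeR called 2.67% and 2.19% of all genes. In the combination against estradiol 16 of 16 log2 differences were negative, with a median of -0.15, and 13 of 16 were below estradiol without overlap, while 19.6% of all genes were. None of these was called by edgeR or DESeq2, and 2 had an unadjusted p under 0.05. ACTB had a log2 difference of -0.18 ± 0.14 and ACTG1 of -0.22 ± 0.15 in that comparison.

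Of 11 tested immediate early genes, edgeR called 1 higher and 1 lower with estradiol, while 1.19% and 0.613% of all genes were, and 2 higher and 1 lower with the combination against DMSO, while 1.48% and 0.711% were. In the combination against dexamethasone it called 1 higher and 2 lower, while 0.824% and 1.84% were. JUNB, an AP-1 subunit, was lower in 3 comparisons. JUNB had 66.8 ± 11.9 CPM in DMSO, 88.7 ± 10.3 under dexamethasone, 39.7 ± 6.17 under estradiol and 42.5 ± 2.84 under the combination (SD, n = 2). It fell by 1.06 ± 0.15 in the combination against dexamethasone (edgeR adjusted p = 0.00480), which held without each library in turn (edgeR adjusted p up to 0.0470). JUNB also fell by 0.75 ± 0.15 with estradiol (edgeR adjusted p = 0.0312), lost without DMSO replicate 2 or either estradiol library, and by 0.66 ± 0.15 with the combination (edgeR adjusted p = 0.0498), lost without any library but DMSO replicate 1. JUN fell by 0.72 ± 0.16 in the combination against dexamethasone (edgeR adjusted p = 0.0473), a call lost without dexamethasone replicate 2 or either combination library. FOSL2, another AP-1 subunit, rose by 0.99 ± 0.16 with the combination against DMSO (edgeR adjusted p = 0.00560), which held without each library in turn. EGR3, a zinc finger factor, rose by 1.40 ± 0.26 with estradiol (edgeR adjusted p = 0.0242), a call lost without either DMSO or either estradiol library. It was also called higher in the combination, by 1.25 ± 0.26 against DMSO and 1.34 ± 0.27 against dexamethasone, and both calls were lost without any of 6 libraries. DESeq2 did not call EGR3 in these comparisons (adjusted p = 0.0994, 0.212 and 0.104). It called IER2 (adjusted p = 0.0245) and JUN (adjusted p = 0.0407) lower in the combination against DMSO and EGR1 lower in the combination against estradiol (adjusted p = 0.00700).

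**Figure D5:**
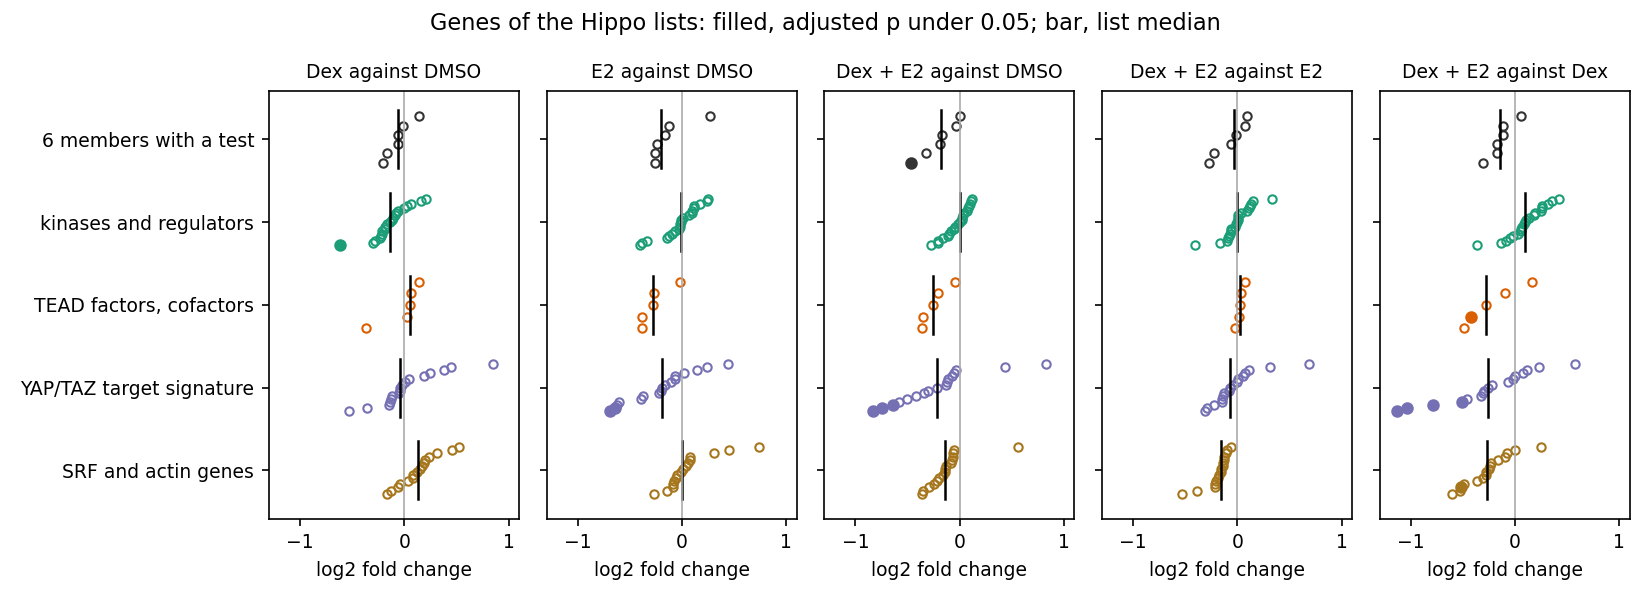
Log2 fold change of each tested gene of 5 lists in 5 comparisons; filled points passed an edgeR adjusted p of 0.05, open points did not, and bars mark the list median. All filled points lie below 0, most of them in the target signature.

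The genes whose levels were most like those of the picked members were found by Pearson's r of log2 CPM over the 8 libraries among 11964 genes. The points share libraries and treatments, so r is a description. Nearest to CTGF were LOC90768 (r = 0.986), ADGRL3 (0.984) and IGFBP3 (0.977), which is also in the target signature. Nearest to CYR61 were KRT80 (0.991), HSD3B7 (0.981) and NEDD9 (0.977). KRT80 had 126 ± 20.1, 177 ± 21.6, 106 ± 14.6 and 92.3 ± 0.441 CPM in DMSO, dexamethasone, estradiol and the combination. Nearest to THBS1 were DHRS3 (0.996), ALPPL2 (0.994) and GDPD5 (0.992), and DHRS3 had 2.25 ± 1.19, 5.28 ± 4.85, 36.1 ± 6.04 and 35.3 ± 3.56 CPM in the same order. By ranks the likeness to THBS1 was weaker, with Spearman's rho of 0.833 for DHRS3, 0.786 for ALPPL2 and 0.952 for GDPD5. Nearest to ANKRD1 were PTOV1-AS1 (0.956), JAZF1 (0.926) and USP21 (0.914). JAZF1 spanned only 19.6 to 22.3 CPM between group means, a much narrower range than ANKRD1.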

How the data were processed

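RNA was sequenced from 8 libraries made with a stranded mRNA kit, per the labels' protocols. The authors deposited raw counts per gene, which were used for every test, and normalised values, which were not used. HISAT2 2.0.4, Subread, featureCounts 1.5.1, DESeq2 1.14.1 and the build hg19 are named in the submitters' processing notes. Which annotation and strand setting the counting used is not given in the sources used here. Genes that overlap a member may therefore share its reads.

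The deposited counts were filtered by group with filterByExpr, scaled by TMM and fitted with edgeR 4.0.16 (R 4.3.3, limma 3.58.1) as 4 groups over all 8 libraries, with 4 residual degrees of freedom. Quasi-likelihood tests were adjusted by Benjamini-Hochberg over 14201 genes in each comparison, with a threshold of 0.05. The SE is the fold change over the root of the F statistic. CPM are counts divided by the TMM-scaled library size, on the usual CPM scale. Both combination columns are numbered 1, and only the one spelled as the label was given that replicate number. The other was used as a combination library without a number. Alternatives were DESeq2 1.42.0, RLE scaling, other filters, fits of 2 groups, leaving out each library and a replicate block. The members and lists were chosen with earlier results of these data known. Per list and comparison the text names up to 3 called genes with the smallest p, or else the 2 most abundant. Changes called only by DESeq2 were named outside this rule, after their values were seen. TAOK1 and MAP4K4 are also given with dexamethasone, although FRMD6 was called there. Likeness was computed on log2 CPM with a prior count of 2. Exon lengths are from GENCODE 29 (GRCh38) and promoters from RefSeq (GRCh38.p14). The fit was tested on counts simulated without any library standing apart, and recovery was required only of 4-fold changes. That test does not speak to the smaller changes of most members. Counts limit the precision of low genes, above all of ANKRD1.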

Additional observations from a re-analysis of the deposited data

Results flagged for a closer look

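In 3 of the picked genes both dexamethasone libraries lay above DMSO, and both combination libraries lay below those of estradiol. Of all tested genes, 18.5% lay above DMSO with dexamethasone and 19.6% below estradiol with the combination without overlap. The share of genes with both was not counted. The log2 difference between the dexamethasone effects with and without estradiol was -0.71 for CTGF, -0.81 for CYR61 and -1.72 for ANKRD1. For CTGF the nearest estradiol and combination libraries both had 5.25 CPM, so its libraries were only just apart. The estradiol effect on ANKRD1 was likewise above 0 without dexamethasone and below 0 with it, with the same difference of -1.72. These differences were not tested, because the genes were picked for this pattern.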

How the results depend on the processing

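With 2 libraries per group each count of calls moved with single libraries. The number of genes called, with each library left out in turn, ranged from 78 to 127 for dexamethasone, 58 to 298 for estradiol, 157 to 325 for the combination against DMSO, 10 to 68 against estradiol, 89 to 488 against dexamethasone and 1 to 10 for the interaction. For the pathway genes these ranges were 0 to 1, 0 to 4, 0 to 5, 0 to 0, 2 to 5 and 0 to 0. Without a filter on low counts, 253, 442, 132, 658 and 32 genes were called for dexamethasone, estradiol, the combination against estradiol, against dexamethasone and the interaction, and 2 and 4 pathway genes for dexamethasone and estradiol. DESeq2 called 68 genes in the combination against estradiol, 13 interactions and 2 pathway genes with dexamethasone. Fits of only the groups compared called 63 genes with dexamethasone, 151 in the combination against estradiol and 0 pathway genes with dexamethasone. The cause of these moves was not tested. RLE scaling kept all these counts within 1.5 times. Whether the shared replicate numbers pair the libraries is not given by the labels, and not every pair of groups had a correlation over 0.1, so the numbers were not used as pairs. The differences between replicates correlated at 0.243 (DMSO and dexamethasone), 0.153 (DMSO and estradiol) and 0.0493 (dexamethasone and estradiol) over genes. A replicate block over the 6 numbered libraries called 239 genes with dexamethasone and 441 with estradiol (2 and 4 pathway genes), and the same libraries without the block, an alternative chosen after seeing the data, 106 and 185 (0 and 1). F3 was among the pathway genes called with dexamethasone under the block, without a filter and by DESeq2. Several member differences near 0 changed sign: AMOTL2 in the combination against DMSO was 0.000931 by DESeq2 and 0.000450 with no filter, and YAP1 against estradiol was 0.00158 with no filter. With libraries left out, dexamethasone against DMSO ranged from -0.0773 to 0.0504 for LATS2, -0.142 to 0.0274 for YAP1 and -0.16 to 1.5 for THBS1. The combination against DMSO ranged from -0.0826 to 0.0763 for AMOTL2 and -0.14 to 0.0798 for WWTR1. Against estradiol it ranged from -0.0859 to 0.0696 for YAP1, -0.0313 to 0.23 for WWTR1 and -0.15 to 0.0341 for TEAD1, and AMOTL2 against dexamethasone from -0.0220 to 0.14. The interaction ranged from -0.0405 to 0.13 for YAP1, -0.17 to 0.0902 for WWTR1 and -1.58 to 0.0922 for THBS1.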
